A study of Mus musculus with 8 samples.

Results

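Transporters of amino acids, small peptides and monocarboxylates were examined in mouse kidney RNA after cisplatin. The genes were taken by name from 9 solute carrier subfamilies, Slc1a, Slc3a, Slc6a, Slc7a, Slc15a, Slc16a, Slc36a, Slc38a and Slc43a. Such a name is carried by 86 genes of the deposited count file. For 49 of them the row held 8 values, 1 for each named library, and these are the members described here, out of 35880 such rows. The other 37 genes stood in rows with 10 values, more than the libraries named, and they were not analysed here. These include Slc7a9, Slc1a5, Slc16a1, Slc7a1, Slc16a10 and Slc43a2. Of the 49 members, 47 are annotated as protein-coding. The name rule also took in 3 genes that lie next to a carrier and are not carriers themselves, the antisense genes Slc6a19os and Slc36a1os and the protein-coding gene Slc7a6os.

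The kidneys came from male C57/BL6J mice according to the study's methods, and the labels give their genotype as WT. The 4 control mice received saline and the 4 treated mice received cisplatin, a platinum drug that injures the kidney tubule, by intraperitoneal injection. All kidneys were collected 72 h after injection, and the age of the mice is not given in the sources used here. Each library is 1 whole kidney sample, and the labels number the controls 1, 2, 3 and 5 and the cisplatin kidneys 1, 3, 4 and 6. Values per kidney are given below in that order.

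The kidney filters amino acids freely and takes nearly all of them back in the proximal tubule. Carriers in the brush border bring them into the cell together with sodium or protons or in exchange for another amino acid, and a second group of carriers in the basolateral membrane hands them on to the blood. Several Slc7a proteins work as light chains that reach the membrane only when bound to a heavy chain, Slc3a1 (rBAT) or Slc3a2 (CD98). Slc16a carriers move lactate, pyruvate, ketone bodies or aromatic amino acids.

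Over the rows used, the library totals ranged from 10953338 to 16701599 counts, and levels are given as CPM, the usual counts scaled to library size, here after TMM scaling. The smallest level taken as measurable, 3 counts, was worth 0.180 to 0.274 CPM by these totals, before TMM scaling. It does not carry over exactly to the TMM-scaled levels given below. This floor covers counting error only. Cisplatin 1 and cisplatin 3 had at most 3 counts of either Y-linked gene examined, Kdm5d and Eif2s3y, against at least 274 in each of the other 6 libraries, although the methods name male mice. The second principal component set control 5, cisplatin 4 and cisplatin 6 (the second library set) apart from the other 5 libraries (the first set). The second set was drawn from these same data and holds 1 control, so values per set are given as descriptions, with no test. Within the cisplatin group, the library set and the lack of Y-linked counts cannot be told apart. Markers of the proximal tubule fell throughout. All 18 of 20 listed markers that were measured were down-regulated, with a median log2 fold change of -3.95. Their summed level lay between 79967 and 100082 CPM in the controls and between 2201 and 16527 CPM in the cisplatin kidneys. A large part of this sum was 1 gene, Kap, with 32106, 29704, 32256 and 35066 CPM in the controls. In the cisplatin kidneys Kap had 544, 229, 6220 and 11022 CPM, lowest in cisplatin 1 and 3. In bulk RNA, fewer proximal tubule cells and less RNA per cell cannot be told apart.

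The rule gave 38 members that passed the expression filter. Of these, 14 were down-regulated and 7 up-regulated after cisplatin, which means an adjusted p under 0.05 in edgeR's quasi-likelihood test and a change by 1 or more in either direction on the log2 scale. The other 17 were not called. The down-regulated members made up 36.8% of those tested, whereas 15.7% of all 9141 genes tested were down-regulated. For up-regulated genes the shares were 18.4% of the members and 19.2% of all genes. The median log2 fold change was -0.28 over the members and 0.08 over all genes tested. In 24 members, 63.2%, the range of the 4 cisplatin kidneys did not touch that of the 4 controls, against 46.3% of all genes. The cisplatin kidneys were all lower in 17 of these members, where 22.5% of all genes were, and all higher in 7, where 23.7% of all genes were. The carriers that fell included glutamate and neutral amino acid carriers of the brush border, the cystine carrier heavy chain Slc3a1 and the basolateral exchangers Slc7a7 and Slc7a8. Those that rose included Slc7a5, Slc7a6, Slc7a11, Slc38a2 and the lactate carrier Slc16a3.

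Without cisplatin 1 and cisplatin 3, 14 members were down-regulated, the same 14, and 7 were up-regulated, 6 of them shared. When libraries were scaled by their totals instead of TMM, this moved the median log2 fold change of all genes from 0.08 to 0.65 and the share of up-regulated genes among all called genes from 55.0% to 79.8%. Under that scaling 10 members were up-regulated and 13 down-regulated. Changes given here are relative to the TMM scaling. Log2 fold changes are from the fit, and changes given as folds are the same fitted values off the log scale. Ratios of the group means in CPM can differ slightly from them.

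**Figure D1:**
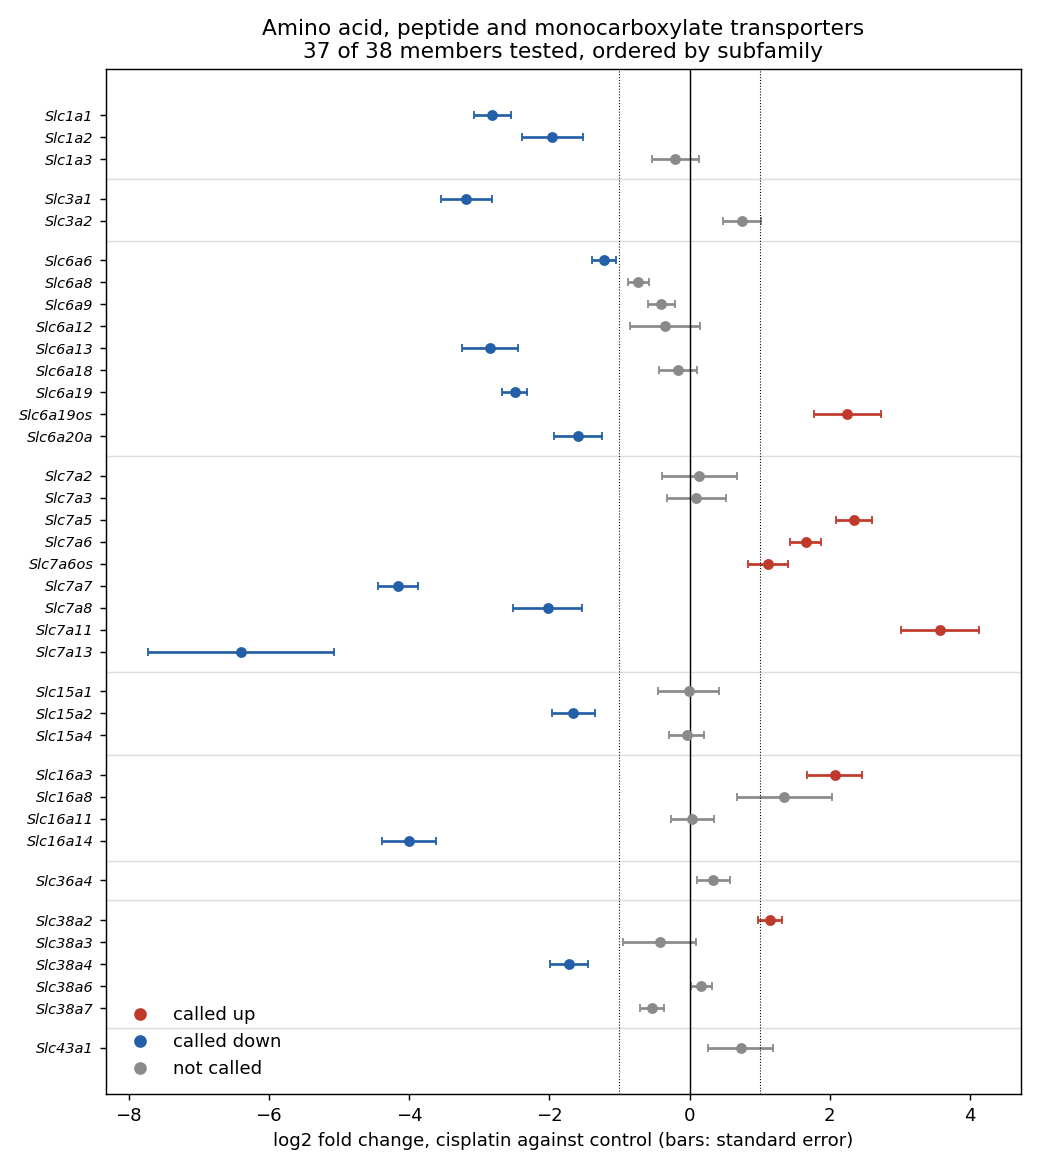
Log2 fold change of 37 of the 38 members tested, cisplatin against control (x axis), by subfamily, with the standard error as bars and dotted lines at a change of 1 in either direction. The down-regulated members reach from -1.22 (Slc6a6) to -6.40 (Slc7a13), and the 7 up-regulated members from 1.11 (Slc7a6os) to 3.57 (Slc7a11).

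Because light chains of subfamily Slc7a rose and fell side by side, the sequence in front of the one with the highest log2 fold change, Slc7a11, is shown beside those of Slc7a7 and the heavy chain Slc3a1, which fell. The windows are from RefSeq (GRCm38.p6) and run from 250 bases before to 50 bases after a gene's start, written 5′ to 3′ on the strand of the gene. Of the members tested, 29 had such a window. Capitals mark matches to TGATGNAA, the letters of the element bound by ATF4 with a C/EBP partner, and to TGANTCA, the letters of an AP-1 site, on either strand. No window of a member held a match to an HNF1 motif searched on both strands, which 0.399% of all 32851 windows held. Slc7a11 is on the minus strand at chr3:50443564-50443863, Slc7a7 on the minus strand at chr14:54417895-54418194 (1 of several RefSeq starts, upstream of the start in the count file), and Slc3a1 on the plus strand at chr17:85028097-85028396.
Slc7a11: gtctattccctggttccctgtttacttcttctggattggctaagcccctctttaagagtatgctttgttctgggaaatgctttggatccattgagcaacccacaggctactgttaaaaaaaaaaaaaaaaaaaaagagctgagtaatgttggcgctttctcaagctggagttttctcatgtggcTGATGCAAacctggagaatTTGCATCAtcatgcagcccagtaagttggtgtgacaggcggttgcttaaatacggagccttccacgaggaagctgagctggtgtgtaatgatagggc
Slc7a7: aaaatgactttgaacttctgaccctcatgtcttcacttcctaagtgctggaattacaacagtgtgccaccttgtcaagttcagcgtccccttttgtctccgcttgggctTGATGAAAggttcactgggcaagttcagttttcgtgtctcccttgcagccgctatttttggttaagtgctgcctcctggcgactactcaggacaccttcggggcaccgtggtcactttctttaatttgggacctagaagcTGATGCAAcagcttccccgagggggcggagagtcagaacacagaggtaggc
Slc3a1: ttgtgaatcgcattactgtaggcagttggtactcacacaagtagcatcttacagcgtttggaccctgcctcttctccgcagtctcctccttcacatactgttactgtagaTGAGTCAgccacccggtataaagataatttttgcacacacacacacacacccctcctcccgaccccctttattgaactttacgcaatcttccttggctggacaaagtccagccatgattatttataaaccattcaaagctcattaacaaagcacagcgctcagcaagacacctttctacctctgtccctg
The Slc7a11 window held the ATF4 letters 2 times, once in each direction, at bases -66 to -59 and -47 to -40 from the start. The Slc7a7 window also held them 2 times, at -141 to -134 and across the start itself at -1 to 7. Of the 5 RefSeq windows of Slc7a7, 3 held no such match, 1 held 1 match and the window shown held the most. Slc3a1 held 1 AP-1 match at -140 to -134. Among all windows 3.97% held the ATF4 letters and 7.81% the AP-1 letters. Of 44 windows of members tested, 3 held the ATF4 letters, the pair of Slc7a7 windows among them sharing 1 site, and 4 held the AP-1 letters, those of Slc3a1, Slc6a12, Slc6a19os and Slc38a7. A match describes letters only, and binding was not measured.

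Of the heavy chains, Slc3a1 fell and Slc3a2 did not. Slc3a1 (ENSMUSG00000024131, chromosome 17 from 85028347 to 85064243) encodes rBAT, which carries the cystine and dibasic amino acid transporter to the brush border and is mutated in cystinuria. It had 655, 771, 471 and 935 CPM in the controls and 45.4, 52.5, 123 and 90.5 CPM in the cisplatin kidneys. Every cisplatin kidney lay far below every control, and the mean dropped from 708 ± 195 to 77.9 ± 36.2 CPM (SD, n = 4 each), 9.09-fold lower (log2 fold change -3.18, standard error 0.36, edgeR adjusted p = 0.000106). Prepl lies on the opposite strand and shares 26.5% of the annotated exon bases of Slc3a1. Whether reads were counted by strand is not given in the sources used here. Slc3a2 (ENSMUSG00000010095, chromosome 19 from 8706882 to 8723369) encodes CD98, the heavy chain of the large neutral amino acid and cystine-glutamate exchangers. Its values were 304, 241, 327 and 379 CPM in the controls and 349, 364, 692 and 687 CPM after cisplatin. Cisplatin 4 and 6 stood above all controls, while cisplatin 1 and 3 lay within the range of the controls. The log2 fold change of Slc3a2 was 0.74 (standard error 0.27, edgeR adjusted p = 0.0451), short of the fold threshold. With a term per library set it was 0.29 in the first set and 0.87 in the second, where control 5 was the one control, and it passed both thresholds without cisplatin 1 and 3, at 1.15.

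In subfamily Slc7a, 4 of 9 members tested were up-regulated and 3 down-regulated. Of the light chains among them, Slc7a5, Slc7a6 and Slc7a11 rose and Slc7a7, Slc7a8 and Slc7a13 fell, and the fourth member that rose, Slc7a6os, is not a carrier. Slc7a13 showed the widest change of any member. It encodes AGT1, an aspartate, glutamate and cystine carrier that pairs with rBAT in the straight part of the proximal tubule, and its mRNA is known to be more abundant in male than in female mouse kidneys. Slc7a13 (ENSMUSG00000041052, chromosome 4 from 19818725 to 19842218) had 1269.8, 1696, 889 and 1593 CPM in the controls, the highest level per length of all members. The cisplatin kidneys had 1.59, 0.110, 16.3 and 47.1 CPM, so that all lay below the controls but differed widely among themselves. Cisplatin 3 had 2 counts and cisplatin 1 had 35, against 222 in cisplatin 4 and 594 in cisplatin 6. The log2 fold change of Slc7a13 was -6.40 (standard error 1.33, edgeR adjusted p = 0.00317). With a term per library set it was -10.46 in the first set and -5.66 in the second, -5.43 without cisplatin 1 and 3, and -7.86 without cisplatin 6. The 2 kidneys with the lowest Slc7a13 were those without Y-linked counts, and their part in the result was not tested.

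The exchangers Slc7a7 and Slc7a8, which work in the basolateral membrane of the proximal tubule, fell. Slc7a7 (ENSMUSG00000000958, chromosome 14 from 54369442 to 54417780) encodes y+LAT1, which releases lysine and arginine to the blood and is mutated in lysinuric protein intolerance. It dropped from 316, 289, 348 and 339 CPM in the controls to 17.1, 28.3, 11.6 and 15.1 CPM. The controls were close together and the cisplatin kidneys were 17.9-fold lower (log2 fold change -4.16, standard error 0.28, edgeR adjusted p = 5.41e-06). Slc7a8 (ENSMUSG00000022180, chromosome 14 from 54722209 to 54781946), which encodes the neutral amino acid exchanger LAT2, had 582, 474, 679 and 427 CPM in the controls. After cisplatin its values were 133, 282, 64.3 and 51.8 CPM. No cisplatin kidney overlapped a control, but cisplatin 3 stood above the other 3. Slc7a8 fell by a log2 fold change of -2.03 (standard error 0.49, edgeR adjusted p = 0.00713), and -2.73 without cisplatin 3. Without both cisplatin 1 and 3 it was -3.21.

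Among the light chains that rose, Slc7a5 (ENSMUSG00000040010, chromosome 8 from 121881150 to 121907694) encodes LAT1, the leucine and large neutral amino acid exchanger of growing cells. Its level was 5.58, 5.82, 7.28 and 8.18 CPM in the controls and 47.8, 36.6, 27.8 and 24.7 CPM in the cisplatin kidneys. All cisplatin kidneys lay above the controls, by 5.09-fold in the fit (log2 fold change 2.35, standard error 0.25, edgeR adjusted p = 7.70e-05). The rise was 2.76 on the log2 scale in the first library set and 1.68 in the second. Slc7a6 (ENSMUSG00000031904, chromosome 8 from 106168857 to 106198706) encodes y+LAT2, which exchanges arginine for neutral amino acids. It increased from 8.50, 11.6, 11.5 and 9.51 CPM to 37.5, 40.6, 26.7 and 24.6 CPM, with no overlap (log2 fold change 1.66, standard error 0.22, edgeR adjusted p = 0.000242).

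Slc7a11 (ENSMUSG00000027737, chromosome 3 from 49892526 to 50443614) encodes xCT, which imports cystine for glutathione in exchange for glutamate. It was nearly silent in the controls, with 2, 6, 2 and 7 counts, and had 74, 41, 46 and 97 counts after cisplatin. In CPM these were 0.177, 0.479, 0.152 and 0.550 and 3.37, 2.25, 3.37 and 7.69. The fitted log2 fold change was 3.57 (standard error 0.55, edgeR adjusted p = 0.000607), the highest among the members, from control levels close to the floor of 3 counts. Even after the rise, Slc7a11 stood at 0.300 CPM per kb of gene length, compared with 9.23 for Slc7a5 and 148 for Slc3a2.

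The remaining genes of the subfamily gave smaller or less even differences. Slc7a6os, which lies tail to tail with Slc7a6 on chromosome 8 and is not a carrier, was called with a log2 fold change of 1.11 (edgeR adjusted p = 0.00886). Its call was lost without cisplatin 4 (log2 fold change 0.92), without cisplatin 6 (0.94), in the first library set alone (0.46), with the library set as a covariate (0.84), with a replicate block (0.44) and when tested against a log2 fold change of 1. The arginine carrier Slc7a2 had 7.88, 14.9, 12.2 and 9.28 CPM in the controls and 21.4, 17.2, 2.56 and 7.30 CPM after cisplatin, higher in cisplatin 1 and 3 and lower in cisplatin 4 and 6 than in all 4 controls. Its log2 fold change was 0.14 over all libraries and -1.17 without cisplatin 1 and 3, and neither passed the test. Slc7a3 averaged 1.44 ± 0.247 CPM in the controls and 1.52 ± 0.937 CPM after cisplatin (SD, n = 4 each).

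**Figure D2:**
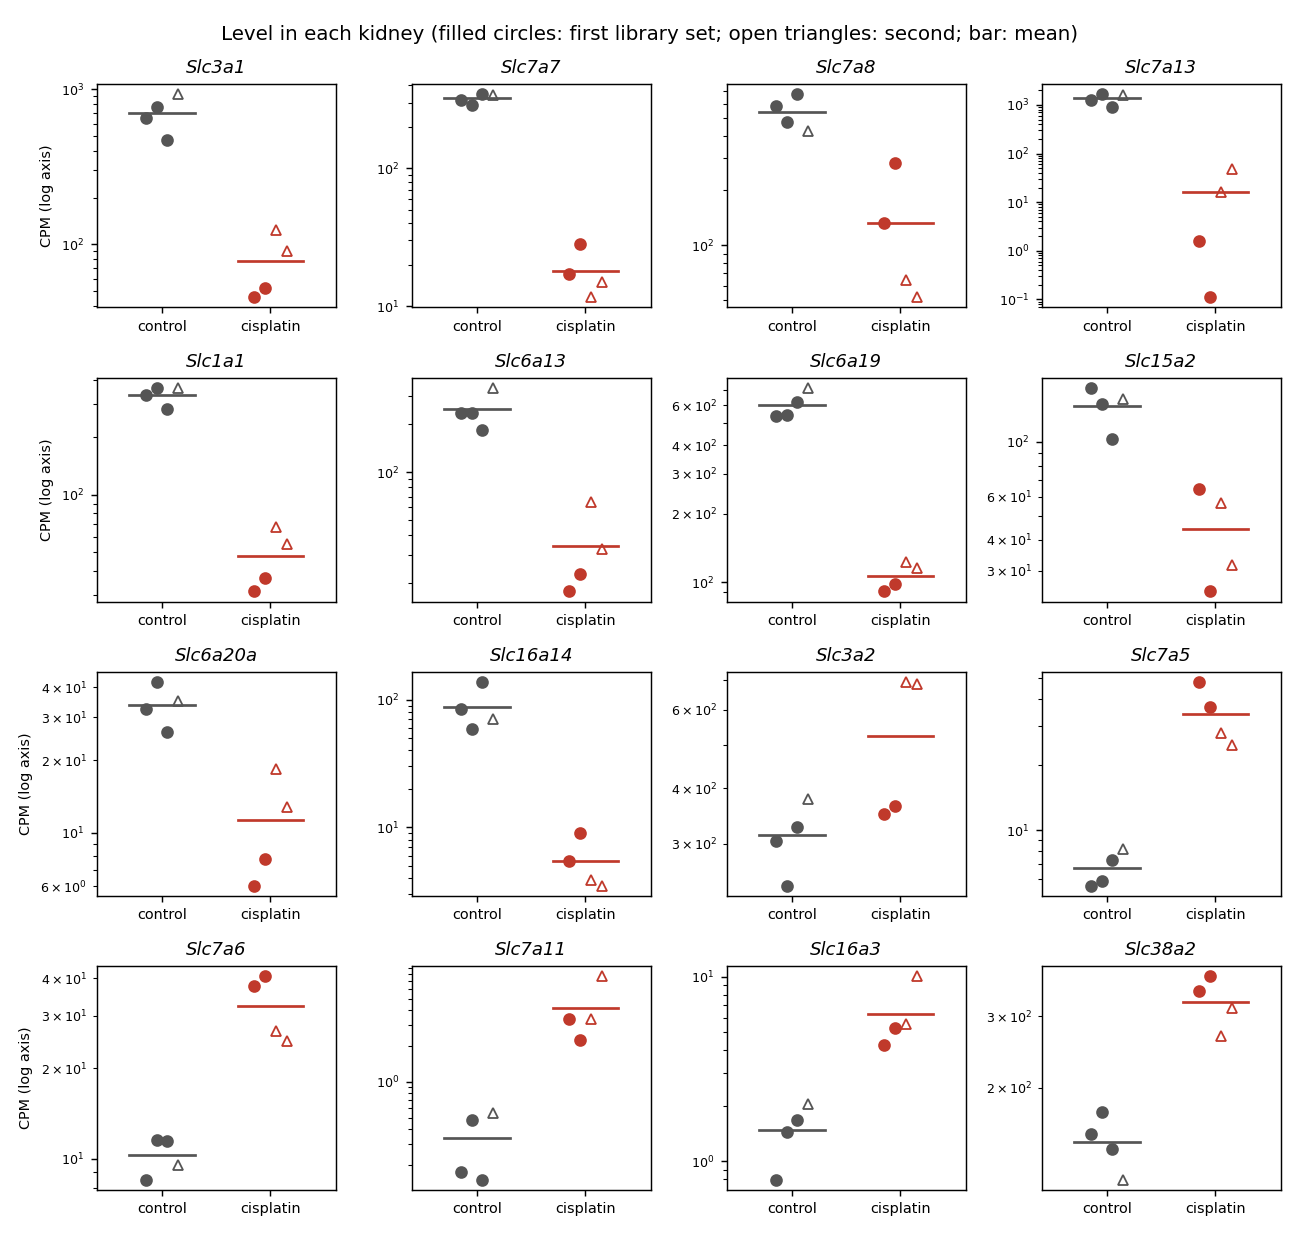
Level of 16 members in each kidney, in CPM on a log axis of its own for each gene, with circles for the first library set, triangles for the second and a bar at the group mean. The 10 members of the first panels, from Slc3a1 to Slc16a14, lie below the controls in every cisplatin kidney, and Slc7a13 spreads from 0.110 to 47.1 CPM after cisplatin.

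In subfamily Slc1a, 2 of 3 members fell. Slc1a1 (ENSMUSG00000024935, chromosome 19 from 28835049 to 28913960) encodes EAAC1, the glutamate and aspartate carrier of the tubular brush border. The controls had 333, 363, 282 and 361 CPM and the cisplatin kidneys 31.2, 36.5, 68.0 and 55.0 CPM, wholly below them. This was 7.02-fold lower (log2 fold change -2.81, standard error 0.26, edgeR adjusted p = 3.15e-05). The gene 4430402I18Rik on the opposite strand shares 31.9% of its exon bases. Slc1a2 (ENSMUSG00000005089, chromosome 2 from 102658659 to 102790784), the glutamate carrier GLT-1 best known from astrocytes, dropped from 10.6, 12.0, 11.7 and 10.3 CPM to 5.18, 3.46, 1.32 and 1.35 CPM. Cisplatin 1 and 3 were nearer to the controls than cisplatin 4 and 6 were. The log2 fold change of Slc1a2 was -1.95 (standard error 0.43, edgeR adjusted p = 0.0045) and -3.05 without cisplatin 1 and 3. Slc1a3, the other glial glutamate carrier, had 4.68 ± 0.559 CPM in the controls and 4.03 ± 1.84 CPM after cisplatin (SD, n = 4 each).

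In subfamily Slc6a, which holds sodium-coupled carriers, 4 of 9 members tested fell. The 1 that rose was the antisense gene Slc6a19os, which is not a carrier. Slc6a19 (ENSMUSG00000021565, chromosome 13 from 73679745 to 73704865) encodes B0AT1, the main neutral amino acid carrier of the brush border, mutated in Hartnup disorder. It had 536, 541, 618 and 715 CPM in the controls and 91.0, 98.3, 123 and 115 CPM after cisplatin, with little spread in either group. The level was 5.64-fold lower (log2 fold change -2.50, standard error 0.18, edgeR adjusted p = 6.75e-06) and nearly equal in both library sets, at -2.58 and -2.59. Slc6a19os (ENSMUSG00000021566, chromosome 13 from 73699826 to 73709853) starts inside Slc6a19 on the opposite strand, 5039 bases from its start, and shares no exon base with it. Its values rose from 0.974, 0.718, 1.67 and 3.15 CPM to 6.82, 10.2, 9.52 and 4.60 CPM (log2 fold change 2.25, standard error 0.48, edgeR adjusted p = 0.00353). In the second library set the log2 fold change of Slc6a19os was 1.17, set against control 5 alone, the control with the highest value.

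Slc6a13 (ENSMUSG00000030108, chromosome 6 from 121300227 to 121337733) encodes GAT2, which takes up GABA, taurine and betaine. Its level went from 237, 234, 183 and 338 CPM in the controls to 17.7, 22.8, 64.4 and 32.8 CPM. The groups were well apart, by 7.21-fold (log2 fold change -2.85, standard error 0.40, edgeR adjusted p = 0.00034). Slc6a20a (ENSMUSG00000036814, chromosome 9 from 123634770 to 123678885) encodes SIT1, a proline carrier, and has a close paralog, Slc6a20b, which was not analysed here. Reads could have been split between the pair in the counting. It fell from 32.5, 42.0, 26.1 and 35.1 CPM to 6.05, 7.81, 18.4 and 12.8 CPM (log2 fold change -1.59, standard error 0.34, edgeR adjusted p = 0.00361). Cisplatin 4 and 6 were higher than cisplatin 1 and 3, and all were below the controls. The taurine carrier Slc6a6 fell from 774 ± 121 to 331 ± 36.6 CPM (SD, n = 4 each, log2 fold change -1.22, edgeR adjusted p = 0.000359), and its call was lost under total library size scaling, at -0.65, with a replicate block, at -0.94, and when tested against a log2 fold change of 1 (edgeR adjusted p = 0.147).

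Other Slc6a members stayed nearer to the controls. Slc6a18, which encodes the neutral amino acid and glycine carrier B0AT3 of the proximal tubule, had 932, 1019.7, 681 and 1639 CPM in the controls and 778, 859.6, 1090.0 and 1084 CPM after cisplatin. The cisplatin kidneys lay within the range of the controls, and the log2 fold change was -0.16 (standard error 0.27, edgeR adjusted p = 0.644), beside a median of -3.95 for the proximal tubule markers. Slc6a18 lies on chromosome 13 directly beside Slc6a19, from 73661752 to 73678023. The creatine carrier Slc6a8 was lower in every cisplatin kidney, at 328 ± 24.6 against 545 ± 63.9 CPM (SD, n = 4 each), and passed the adjusted p but not the fold threshold (log2 fold change -0.73, edgeR adjusted p = 0.00325). For the glycine carrier Slc6a9 the log2 fold change was -0.40 (edgeR adjusted p = 0.104), and Ccdc24 on the opposite strand shares 27.8% of its exon bases. The betaine carrier Slc6a12 had 2.82 ± 1.27 CPM in the controls and 2.19 ± 1.33 CPM after cisplatin (SD, n = 4 each).

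Of the peptide carriers, Slc15a2 was the 1 of 3 tested that changed. Slc15a2 (ENSMUSG00000022899, chromosome 16 from 36750178 to 36784962) encodes PEPT2, the high-affinity dipeptide carrier of the proximal tubule. It had 165, 143, 102 and 149 CPM in the controls and 64.2, 24.7, 56.7 and 31.8 CPM in the cisplatin kidneys. The highest cisplatin kidney stayed below the lowest control, and the mean was 3.15-fold lower (log2 fold change -1.66, standard error 0.31, edgeR adjusted p = 0.00171). Slc15a1, which encodes the intestinal form PEPT1, was low, with 1.48 ± 0.547 and 1.46 ± 0.701 CPM in controls and cisplatin kidneys (SD, n = 4 each). Slc15a4, a lysosomal histidine and peptide carrier, had 23.7 ± 7.33 and 23.0 ± 4.86 CPM (SD, n = 4 each). Neither passed the test.

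Among the monocarboxylate carriers, Slc16a14 fell and Slc16a3 rose. Slc16a14 (ENSMUSG00000026220, chromosome 1 from 84905898 to 84935134), a member of the family with no settled substrate, dropped from 84.9, 58.6, 137 and 70.1 CPM to 5.41, 9.02, 3.88 and 3.49 CPM. No kidney overlapped, and the log2 fold change was -4.00 (standard error 0.38, edgeR adjusted p = 3.81e-05).

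Slc16a3 (ENSMUSG00000025161, chromosome 11 from 120948480 to 120960868) encodes MCT4, the carrier by which glycolytic cells export lactate. It increased from 0.797, 1.44, 1.67 and 2.04 CPM to 4.28, 5.28, 5.56 and 10.1 CPM, with cisplatin 6 the highest and all cisplatin kidneys above the controls. The difference was 4.19-fold (log2 fold change 2.07, standard error 0.39, edgeR adjusted p = 0.00182). Per length it stood after cisplatin at 1.18 CPM per kb. Slc16a8 averaged 1.19 ± 0.915 and 3.07 ± 1.62 CPM and Slc16a11 39.2 ± 13.2 and 40.3 ± 14.5 CPM in controls and cisplatin kidneys (SD, n = 4 each), and neither passed.

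In subfamily Slc38a, Slc38a2 rose and Slc38a4 fell among 5 tested. Slc38a2 (ENSMUSG00000022462, chromosome 15 from 96687392 to 96699730) encodes SNAT2, a sodium-coupled carrier of alanine and glutamine that cells increase when amino acids are scarce. It had 154, 175, 142 and 119 CPM in the controls and 346, 377, 268 and 315 CPM after cisplatin. All cisplatin kidneys were above all controls, by 2.22-fold (log2 fold change 1.15, standard error 0.17, edgeR adjusted p = 0.000523). Without cisplatin 1 and 3 the log2 fold change was 0.99, just under the threshold. Slc38a4 (ENSMUSG00000022464, chromosome 15 from 96994820 to 97055956), the carrier SNAT4, dropped from 5.31, 4.55, 5.54 and 4.17 CPM to 1.55, 1.81, 1.17 and 1.35 CPM (log2 fold change -1.72, standard error 0.27, edgeR adjusted p = 0.000615).

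Slc38a3 encodes SNAT3, which supplies the tubule with glutamine for ammonia formation. It had 81.8, 168, 48.9 and 149 CPM in the controls and 29.3, 51.7, 161 and 90.2 CPM after cisplatin. Both groups spread over more than the difference between them, and the log2 fold change was -0.43 (standard error 0.52, edgeR adjusted p = 0.527). Using just the first library set, it was -1.35. The lysosomal glutamine carrier Slc38a7 was lower in every cisplatin kidney, at 29.8 ± 2.36 against 43.4 ± 8.30 CPM (SD, n = 4 each, log2 fold change -0.54, edgeR adjusted p = 0.0253), short of the fold threshold. Slc38a6 had 31.7 ± 2.29 and 35.6 ± 4.13 CPM in controls and cisplatin kidneys, and the amino acid carrier Slc36a4 19.1 ± 3.52 and 24.1 ± 6.60 CPM (SD, n = 4 each). The large neutral amino acid carrier Slc43a1 had 2.82 ± 1.68 and 4.65 ± 1.48 CPM in controls and cisplatin kidneys (SD, n = 4 each). None of these 3 passed.

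The 11 members that did not pass the expression filter included Slc6a11, Slc6a21, Slc7a14, Slc15a5, Slc36a1os, Slc36a2, Slc36a3, Slc38a5, Slc38a8 and Slc38a11. In 9 of them no library had more than 2 counts. Slc36a2, a glycine and proline carrier of the renal brush border, had 20, 1, 0 and 10 counts in the controls and 27, 21, 7 and 0 counts after cisplatin. Slc38a11 had 8, 7, 8 and 6 counts and 37, 24, 5 and 7 counts, higher in cisplatin 1 and 3.

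**Figure D3:**
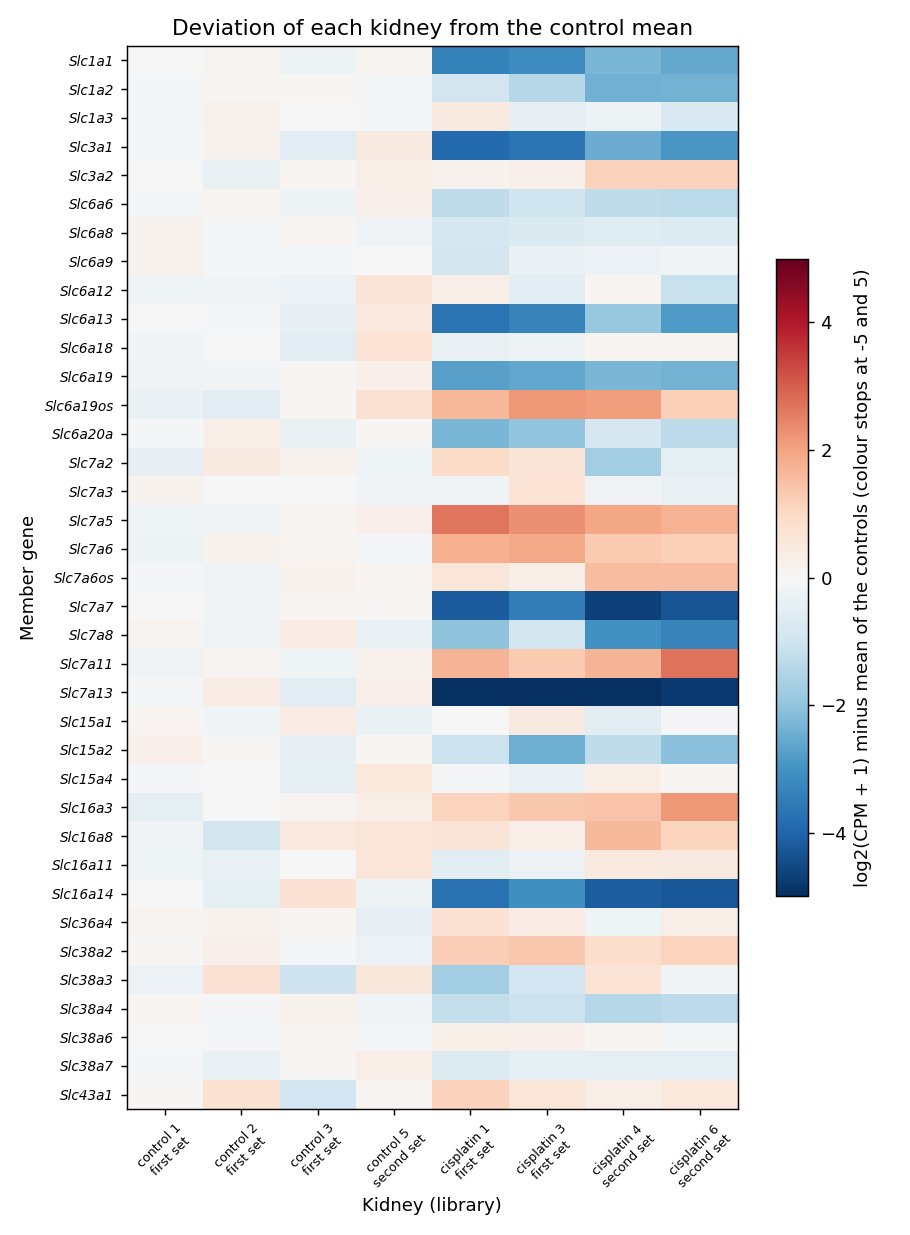
Deviation of each kidney from the control mean in log2(CPM + 1), 37 of the 38 members tested by row and 8 kidneys by column, ordered by group and library set. Slc7a7 and Slc16a14 are low in all 4 cisplatin kidneys, while Slc3a2 is high in cisplatin 4 and 6 and Slc7a2 is higher in cisplatin 1 and 3 than in cisplatin 4 and 6.

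The summed level of all 49 members was 7975, 8400.3, 7024 and 9661 CPM in the controls and 2949, 3362, 3885 and 3718 CPM after cisplatin. Every cisplatin kidney lay below every control, at a mean of 3479 ± 415 against 8265 ± 1094 CPM (SD, n = 4 each). By subfamily, the sum for Slc7a dropped from 2292 ± 237 to 332 ± 86.6 CPM, while the sum for Slc38a was 339 ± 57.8 CPM in the controls and 477 ± 26.7 CPM after cisplatin (SD, n = 4 each). These sums are dominated by their most abundant genes.

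Dividing by gene length gave the order of the members. In the controls Slc7a13 stood first at 636 CPM per kb, followed by Slc3a1 at 307 and Slc6a18 at 242. Slc6a19 stood lower, at 120.4 CPM per kb. After cisplatin the order was Slc6a18 at 216, Slc3a2 at 148, Slc6a8 at 63.0, Slc6a6 at 39.2 and Slc38a2 at 36.9 CPM per kb. Slc6a18 was the 1 gene among the first 3 in both groups. In the controls Slc3a1 (471 to 935 CPM) and Slc6a18 (681 to 1639 CPM) overlapped before scaling to length, and the order of these neighbours was not tested. The gene lengths are those in the deposited table.

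**Figure D4:**
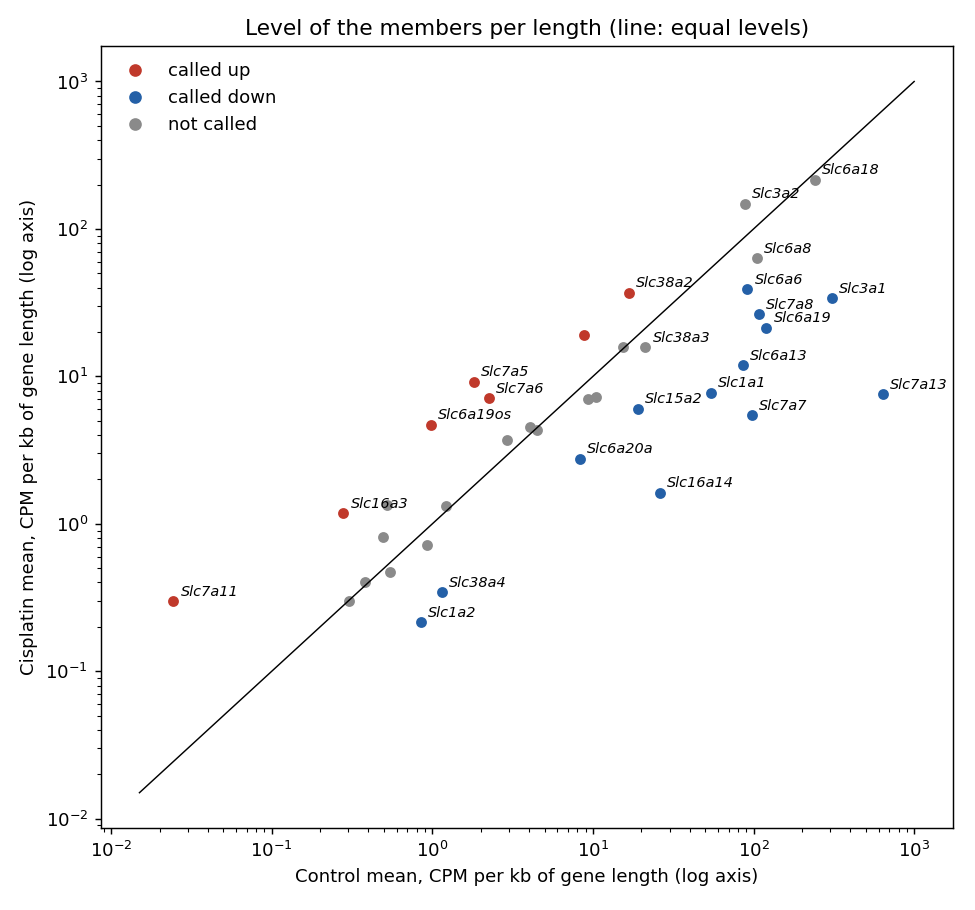
Mean level of 37 of the 38 members tested in the controls (x axis) and in the cisplatin kidneys (y axis), in CPM per kb of gene length on log axes, with a line at equal levels. Slc7a13 lies farthest below the line, at 636 and 7.60 CPM per kb, and Slc7a11 is the lowest member in the controls, at 0.0244.

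Genes that work with these carriers were counted by list, where 19.2% of all genes tested rose and 15.7% fell. Of the partner proteins of the brush border carriers, 3 of 5 measured were down-regulated. They included Tmem27 (collectrin), which holds Slc6a19 in the membrane, from 1880.1 ± 96.3 to 216 ± 92.9 CPM, and the scaffold gene Pdzk1, from 1096 ± 79.6 to 83.7 ± 19.1 CPM (SD, n = 4 each). All 8 of 16 listed peptidases that were measured fell, among them Cndp1 (log2 fold change -5.36), Lap3 (-2.28), Ggt1 (-3.36) and Mep1b (-6.59). Of 31 genes tested in the list of amino acid breakdown enzymes, 24 fell, with a median of -2.05. The list also holds enzymes of synthesis, among them Gatm and Gamt (creatine) and Glul (glutamine). The lowest adjusted p were those of Mut, Gatm, Aldh6a1 and Mccc1, with log2 fold changes of -2.79, -5.37, -2.56 and -2.62. Gatm is also one of the proximal tubule markers.

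Of 14 genes of the amino acid starvation response that were tested, 8 rose and 2 fell, with a median of 1.69. The translation repressor Eif4ebp1 rose from 13.8 ± 2.65 to 100.3 ± 16.9 CPM, Ddit3, which encodes CHOP, from 14.6 ± 1.70 to 72.8 ± 24.6 CPM, Nupr1 from 11.4 ± 3.56 to 44.1 ± 5.66 CPM and Trib3 from 1.25 ± 0.432 to 12.4 ± 5.03 CPM (SD, n = 4 each). The genes that fell, Shmt2 (log2 fold change -2.98) and Cth (-2.09), encode enzymes of serine and cysteine metabolism. Among other genes of serine metabolism in the list, Phgdh rose (1.91) and Psph was not called (0.31). Atf4 itself was not analysed here. The 9 aminoacyl-tRNA synthetases tested had log2 fold changes between -0.01 and 0.77, short of the fold threshold, and a median of 0.39. Of 16 genes of amino acid sensing by mTORC1, Sesn2 rose (1.63), Fnip2 fell (-1.88) and 14 were not called. Sesn2 and Cth each stand in more than 1 list.

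For lactate and pyruvate, 8 of 14 genes tested fell and 1 rose. The sodium-coupled lactate carrier Slc5a12, which is outside the subfamilies described here, fell from 371 ± 55.2 to 6.48 ± 3.44 CPM, and Pdk4, an inhibitor of pyruvate dehydrogenase, rose from 50.9 ± 3.73 to 416 ± 139 CPM (SD, n = 4 each). Pdk2 (log2 fold change -2.80), Pdk3 (-1.59) and Pcx (-3.17), which encodes pyruvate carboxylase, also fell. Bsg, the chaperone of several Slc16a carriers, had a log2 fold change of -0.18 and was not called. Of 8 genes for the formation, breakdown or use of glutathione, Gclc (1.09) and Chac1 (1.75) rose, and Ggt1 (-3.36), Chac2 (-1.88) and Cth (-2.09) fell. Over all genes tested 19.2% rose and 15.7% fell.

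Markers of other cells were also counted, beside the same shares of 19.2% up and 15.7% down over all genes tested. Of the loop and distal tubule markers 5 of 7 fell, of the fibroblast and mural markers 3 of 3 rose, and of the injured tubule markers 9 of 10 rose. The summed level of the fibroblast and mural markers was 70.4 to 252 CPM in the controls and 341 to 1569 CPM after cisplatin, and that of the injured tubule markers 1596 to 1841 and 20041 to 40511 CPM. No marker of these lists was at 0 in every library. Of 7 leukocyte markers 4 rose and 1, Ptprc, fell, and their summed level was 58.7 to 103 CPM in the controls and 44.1 to 109 CPM after cisplatin. Of 7 collecting duct markers Aqp2 rose and Slc4a1 fell. The groups overlapped for Aqp2, at 407 CPM in control 5 and 323 CPM in cisplatin 6. Of 4 podocyte markers Cdkn1c rose, and the 3 endothelial markers had log2 fold changes between -0.94 and -0.09, short of the fold threshold. The part of these cell types in the transporter changes was not tested.

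**Figure D5:**
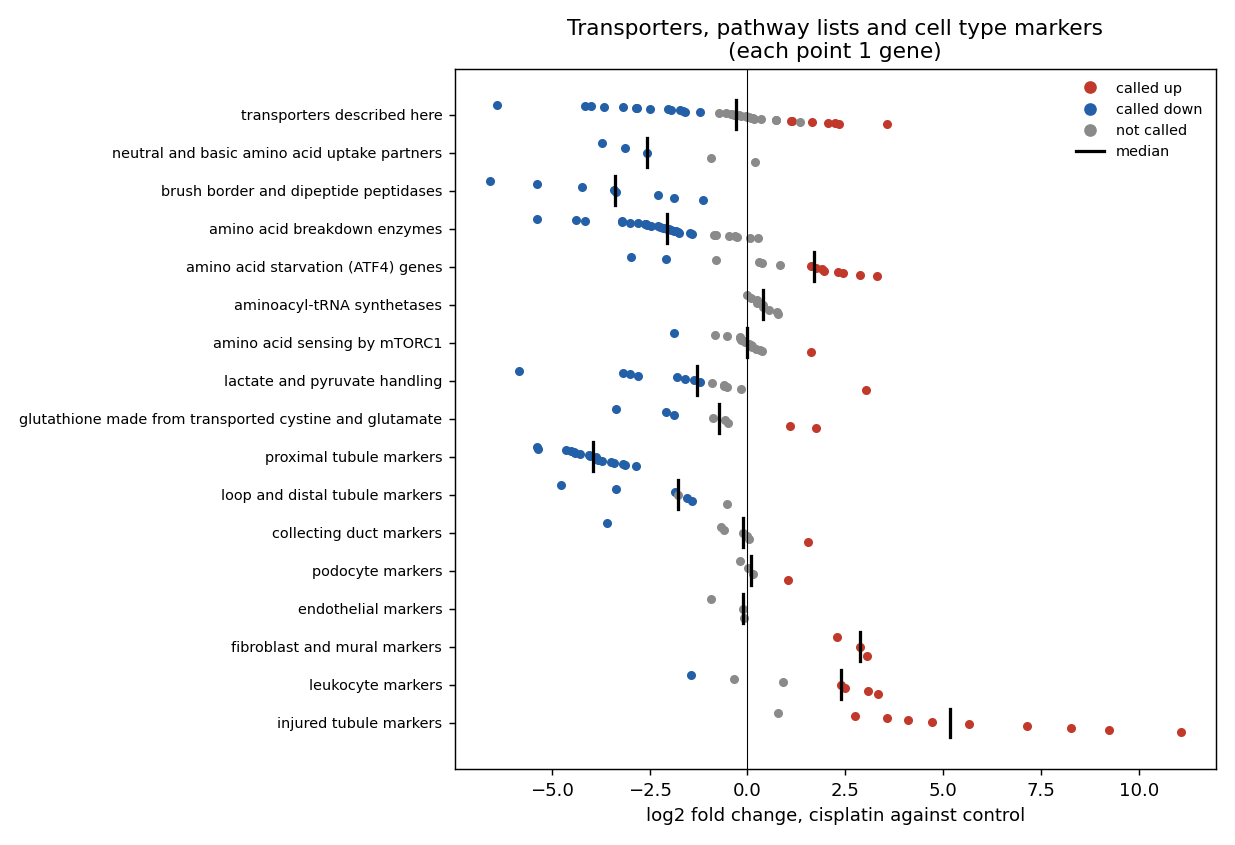
Log2 fold change (x axis) of each gene tested, for the transporters described here, 8 related pathway lists and 8 lists of cell type markers, with a black bar at each median. The proximal tubule markers all lie below -2.8, the aminoacyl-tRNA synthetases lie between -0.01 and 0.77, and the transporters spread over both sides of 0.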

How the data were processed

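Whole-kidney RNA of 4 control and 4 cisplatin mice was sequenced as poly(A)-selected libraries. The authors trimmed reads with fastp and aligned them to GRCm38 with HISAT2, according to the submitters' processing notes, and deposited raw counts per gene with gene coordinates and lengths. The counting tool, its annotation and its strand setting are not given in the sources used here, and the labels and the study's methods name different library kits. The deposited table has 53715 rows and 8 named libraries. In 17835 rows there were 10 values for these 8 names, 2 columns more than can be assigned, and only the 35880 rows with 8 values were used (66.8%). Totals over these rows were 10953338 to 16701599 counts, and library sizes are sums over them alone.

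After filterByExpr and TMM scaling, counts entered the quasi-likelihood test of edgeR (edgeR 4.0.16, R 4.3.3), with Benjamini-Hochberg adjustment over all genes tested. A call needed an adjusted p below 0.05 and a log2 fold change of 1 or more in size. CPM values are TMM-scaled, and standard errors are the absolute log2 fold change over the square root of the F statistic. Members were taken by gene name. Per-kidney values are given for called members whose groups did not overlap, up to 3 in each direction per subfamily by size of change. They are also given for 15 carriers chosen by name, where present. Slc6a18 and Slc7a2, and the counts of Slc36a2 and Slc38a11, fall outside this rule and were added with their values known. From each list, up to 4 called genes per direction were named by lowest adjusted p. Other list genes named were chosen after their values were seen. The members and lists were chosen with earlier results of these data known. Alternatives used DESeq2 1.42.0, other scalings, filters and thresholds, a replicate block, library sets and left-out libraries. The treatment term per library set was added after seeing the data. Tested on simulated counts for cisplatin against control (8999 genes, 190 changed), the edgeR step recovered 83.2% with 5 false calls. No 2 libraries of a group were near copies, since the lowest chi-square per gene between them was 16.0. Nothing in the labels says how the mice were housed or batched, so that p-values measure the spread between these kidneys. Member coordinates are those of the table, and 47 of 49 were identical in GENCODE M21. Results for some members and listed genes are not reported here.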

Additional observations from a re-analysis of the deposited data

Results flagged for a closer look

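In 4 of 76 groups of 4 kidneys checked over the members tested, 1 kidney lay far from the other 3 by Dixon's criterion. Of these, 3 are given here. Chance flags about 1 group in 20. Slc6a12 had 4.72 CPM in control 5 and 1.97 to 2.39 CPM in the other controls. Slc7a3 had 2.91 CPM in cisplatin 3 and 0.872 to 1.17 CPM in the other cisplatin kidneys. Slc36a4 had 13.8 CPM in control 5 and 20.2 to 21.3 CPM in the other controls.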

How the results depend on the processing

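Of 867 member log2 fold changes under the alternatives, 795 kept direction and side of the threshold, 15 lost a call, 7 gained one and 50 changed sign, the last all in members that were not called. The count of down-regulated members was 11 to 15 and that of up-regulated members 4 to 10. With at least 10 counts in every library 4 members were up-regulated among 31 tested, all among the 7. Testing against a log2 fold change of 1 gave 5 up and 11 down, without Slc6a6, Slc6a20a, Slc7a6os, Slc7a8 and Slc38a2. Leaving out 1 library at a time gave 6 to 7 up and 14 down. Replicate numbers 1 and 3 occur in both groups, but nothing links the mice. Same-numbered kidneys deviated together with r of 0.249 and 0.279 across genes, against 0.148 to 0.355 for other pairs of the first library set, so the numbers were not taken as pairs. With the replicate block 7 members were up-regulated, 6 of them shared, and 13 down-regulated. In that fit the cisplatin effect rests on kidneys 1 and 3 of each group, as the other numbers occur in a single group. Cisplatin 1 and 3 are also the kidneys that lacked Y-linked counts.

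Signs changed under total library size scaling for Slc1a3 (0.38), Slc6a9 (0.15), Slc6a12 (0.24), Slc6a18 (0.40), Slc15a1 (0.56), Slc15a4 (0.52), Slc38a3 (0.093) and Slc38a7 (0.026), where the median of all genes also moved up. With the replicate block they changed for Slc1a3 (0.090), Slc6a12 (0.20), Slc6a18 (0.038), Slc15a4 (0.030) and Slc16a11 (-0.32). In the first library set with a term per set they changed for Slc1a3 (0.056), Slc6a12 (0.24), Slc15a1 (0.19) and Slc16a11 (-0.23), and in that set alone for Slc6a12 (0.17), Slc15a1 (0.13) and Slc16a11 (-0.28). In the second set they changed for Slc7a2 (-0.92), Slc7a3 (-0.20), Slc15a1 (0.078) and Slc16a11 (-0.14). Without cisplatin 1 and 3 they changed for Slc6a18 (0.037), Slc7a2 (-1.17), Slc7a3 (-0.48), Slc15a4 (0.19) and Slc38a3 (0.18). Upper quartile scaling turned Slc15a1 (0.042) and Slc15a4 (0.023), and the set covariate turned Slc15a1 (0.16) and Slc16a11 (-0.20). With 1 library left out, the range was -0.71 to 0.00018 for Slc6a12, -0.34 to 0.10 for Slc6a18, -0.31 to 0.47 for Slc7a2, -0.45 to 0.28 for Slc7a3, -0.37 to 0.23 for Slc15a1, -0.21 to 0.16 for Slc15a4 and -0.12 to 0.28 for Slc16a11. The cause was not tested. Depth limits Slc7a11, at 2 to 7 counts in the controls, and the members not tested.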

Other observations

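The exchanger Slc7a8 and its neighbour Slc7a7 lie on the same strand of chromosome 14 with starts 364166 bases apart, and both fell after cisplatin. Slc6a18 and Slc6a19 are also neighbours on one strand, of chromosome 13, and Slc6a19 fell by 2.50 on the log2 scale while Slc6a18 had a log2 fold change of -0.16. The difference between these genes was not tested.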
